A study of Caenorhabditis elegans with 24 samples.

Results

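Polysomal mRNA was compared with total mRNA in adult wild-type C. elegans (strain N2) fed ad libitum (AL). The comparison used the 4 libraries of polysomal mRNA and the 4 libraries of total mRNA that carry the AL and N2 labels, 8 of the 24 libraries of the series, and asked which functional classes of mRNA were on polysomes and which were off them in well-fed worms. Synchronised worms were grown at 20°C on E. coli OP50, moved to AL plates at day 1 of adulthood and lysed whole at day 4. The plates held carbenicillin, which stops bacterial growth, and FUdR, an inhibitor of DNA synthesis, to prevent progeny, so the germ line was studied under that drug in every group. Polysomal RNA was the RNA bound to 2 or more ribosomes on sucrose gradients, and is called translated mRNA here. Total mRNA came from an aliquot of the lysate that was not fractionated, and both pools were enriched for polyadenylated transcripts. The same ratio was taken in N2 under dietary restriction (DR, a thinner lawn of the same bacteria from day 1 of adulthood) and in AL-fed daf-2;rsks-1 double mutants, which lack normal function of the insulin/IGF receptor and of S6 kinase. Each of those conditions also had 4 total and 4 translated libraries.

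An mRNA that is being read by several ribosomes at once sediments with the heavy fractions of a sucrose gradient, whereas an mRNA that is stored, repressed or confined to the nucleus does not. In the C. elegans germ line, many mRNAs are made early, held silent by RNA-binding proteins of the KH, PUF, Nanos and CCCH zinc-finger families, and translated only in a later zone of the gonad or in the embryo. The intestine, by contrast, is a large secretory and digestive tissue that makes yolk, lysozymes, lectins and proteases throughout adult life.

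Values were reads assigned to each gene, scaled to library size and RNA composition by the authors (CPM). The 4 AL total libraries held between 10250079 and 12394990 reads on genes and the 4 AL translated libraries between 8696904 and 10546897. Protein-coding genes took 93.3 to 97.9% of the reads in total and 91.8 to 97.8% in translated mRNA. A ribosomal RNA gene took most of the rest, from 1.27 to 5.83% of reads as rRNA in total and from 1.88 to 7.77% in translated mRNA, with translated replicate 4 the highest. Libraries of 1 pool were alike, with Spearman correlations over genes of 0.995 to 0.998. Markers of germ line, intestine, muscle, pharynx and neurons were present. Summed hypodermis markers, nearly all of them col-19 and lin-26 reads, were lower in translated mRNA (389 to 429 CPM in total, 133 to 149 CPM in translated), and summed gonad sheath and spermatheca markers, mostly inx-8 and inx-9 reads, higher (159 to 169 and 341 to 354 CPM). Sperm markers summed to 8.09 to 10.4 CPM in total and 12.7 to 14.6 CPM in translated mRNA over 8 genes, so sperm transcripts were near 0 in these worms. The 12 mitochondrially encoded mRNAs and the muscle gene hlh-1 were listed at 0 in every library and were left without a value. These are whole worms, so fewer cells of a type and less RNA per cell cannot be told apart in either pool. The study's methods describe the 4 libraries of a pool as biological replicates.

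The filter (mean CPM of 8 or above across 16 N2 libraries) kept 8224 protein-coding genes. Translated exceeded total mRNA in 397 of them (4.83%) and fell short of it in 930 (11.3%), at an adjusted p below 0.05 (limma) and a change of at least 2-fold. Calls are given in these terms throughout, and the log2 ratio is the difference of log2(CPM + 0.5), translated minus total, so that a gene at equal CPM in both pools has a ratio of 0. The 4 translated and 4 total values did not overlap in any of the 1327 called genes. The calls were made from these same values, so this gives no separate support. Of all genes, 42.1% did not overlap on the higher side and 40.2% on the lower side. The median ratio was 0.04, and 5% of genes lay below -1.38 and 5% above 0.99. The distribution had a long lower tail: 70 genes were lower by at least 4-fold, the lowest at -3.49, while the highest ratio was 1.63. The balance between directions depended on scaling. Dividing by reads on protein-coding genes, with no composition factor, moved the median of all genes by -0.13 and gave 160 genes higher and 1196 lower, so that the higher genes made up 11.8% of calls in place of 29.9%. Of the genes described as higher, 26 were under 2-fold on that scaling: asp-4, cnc-10, cpl-1, cpz-1, cyp-37A1, daf-22, far-3, fat-5, ftn-2, gst-24, hil-3, hpd-1, lbp-1, lbp-2, lys-8, ndub-3, rpl-11.1, skr-10, skr-14, snr-1, snr-5, snr-6, sod-4, tpi-1, ule-1 and ule-2. With median-ratio size factors 4 genes described as lower were under 2-fold, cbd-1, mex-3, sams-3 and sams-4. Class medians are read below against the median of all genes.

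Transcripts that code for no protein gave a reference for what lies off polysomes. In a fit of genes of all types, 11 of 16 noncoding RNA genes were lower in translated mRNA and the median of the 16 was -2.72, against 11.9% of 8360 genes called lower and 4.75% called higher. Among the 11, srpr-2.1, srpr-1.2 and srpr-2.2 varied widely between total libraries, srpr-2.1 from 14.4 to 120 CPM. Their ratios were -4.49, -3.99 and -3.96 in AL but 0.94, 0.79 and 0.94 in N2 under DR. The noncoding RNA tts-1 had 371, 407, 388 and 344 CPM in total mRNA and 30.9, 28.8, 31.8 and 31.2 CPM in translated mRNA. Its log2 ratio was -3.60 ± 0.04 (SE), and no translated library came near a total library. The long intergenic RNA lep-5, which acts in developmental timing, had 36.5, 37.1, 35.7 and 40.4 CPM in total mRNA and 3.73, 3.88, 4.54 and 3.99 CPM in translated mRNA, a ratio of -3.06. The noncoding RNA rncs-1 was lower as well, with 7.12, 7.71, 6.99 and 6.28 CPM in total and 0.622, 0.444, 0.568 and 0.515 CPM in translated mRNA. Of 61 genes annotated as pseudogenes, 51 were lower, with a median of -1.86. Excluding those that share exon bases with another gene left 47 of 56 pseudogenes and 9 of 12 noncoding RNA genes lower. The remaining 5 noncoding genes lay between -0.02 and 0.81, and 2 of these, F53H2.4 and W06H8.5, share 98.8 and 100% of their exon bases with a neighbour on the unstranded count.

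**Figure D1:**
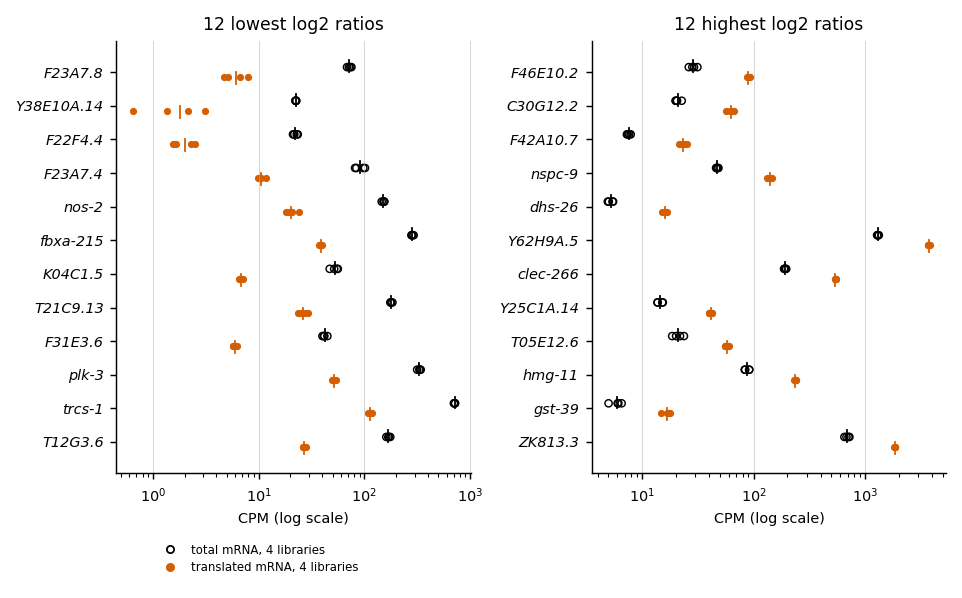
CPM (log axis) in each AL library for the 12 called genes with the lowest log2 ratio (left) and the 12 with the highest (right). Open circles are the 4 total libraries, filled circles the 4 translated libraries, and short vertical lines the group means. The genes were taken from called genes whose pools did not overlap, so the pools are separated in every gene. The log2 ratio is -3.49 for F23A7.8 at the top left and 1.63 for F46E10.2 at the top right.

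Among protein-coding genes, the 12 lowest ratios belonged to F23A7.8, Y38E10A.14, F22F4.4, F23A7.4, nos-2, fbxa-215, K04C1.5, T21C9.13, F31E3.6, plk-3, trcs-1 and T12G3.6. F23A7.8, a gene with a coding length of 201 nt on chromosome X, had 71.5, 73.7, 68.5 and 75.5 CPM in total mRNA and 5.19, 4.66, 6.70 and 7.86 CPM in translated mRNA. F23A7.4, its neighbour by name with a coding length of 204 nt, had 84.0, 101, 81.7 and 97.8 CPM in total mRNA and 10.2, 10.5, 9.77 and 11.8 CPM in translated mRNA. Both were therefore as low as the noncoding RNAs, with ratios of -3.49 ± 0.09 and -3.05 ± 0.07 (SE). fbxa-215, which encodes an F-box protein, had 285, 292, 279 and 280.0 CPM in total mRNA and 40.1, 39.3, 38.3 and 37.5 CPM in translated mRNA and was the most abundant of 50 F-box mRNAs kept. plk-3, a Polo-like kinase, had 331, 316, 341 and 334 CPM in total mRNA and 49.9, 51.9, 53.96 and 50.7 CPM in translated mRNA. trcs-1 was the most abundant of the 12, with 702, 721, 711 and 717 CPM in total mRNA and 117, 109, 109.9 and 115.6 CPM in translated mRNA, and its ratio was -2.65 ± 0.03 (adjusted p = 3.84e-41). In each of these genes no translated library reached the lowest total library, which was a condition for listing it.

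The 12 highest ratios belonged to F46E10.2, C30G12.2, F42A10.7, nspc-9, dhs-26, Y62H9A.5, clec-266, Y25C1A.14, T05E12.6, hmg-11, gst-39 and ZK813.3. Y62H9A.5, an X-linked gene with a coding length of 495 nt, was the most abundant, with 1282, 1305, 1301 and 1328 CPM in total mRNA and 3669, 3761, 3689 and 3844 CPM in translated mRNA. Its ratio was 1.52 ± 0.03 (adjusted p = 7.94e-37). ZK813.3, also X-linked and short, had 681, 710.4, 652 and 724 CPM in total mRNA and 1832, 1867, 1838 and 1868 CPM in translated mRNA. The C-type lectin gene clec-266 had 196, 192, 188 and 191 CPM in total mRNA and 548, 549, 533 and 537 CPM in translated mRNA. gst-39, a glutathione transferase, was a rare mRNA, with 5.01, 6.14, 6.04 and 6.57 CPM in total mRNA and 17.7, 17.5, 16.7 and 14.9 CPM in translated mRNA. The highest ratios were thus spread over rare and abundant mRNAs. In each gene all 4 translated values lay above all 4 total values, which was again a condition for listing it. All exon bases of hmg-11 overlap another gene, so its reads cannot be assigned to one or the other.

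**Figure D2:**
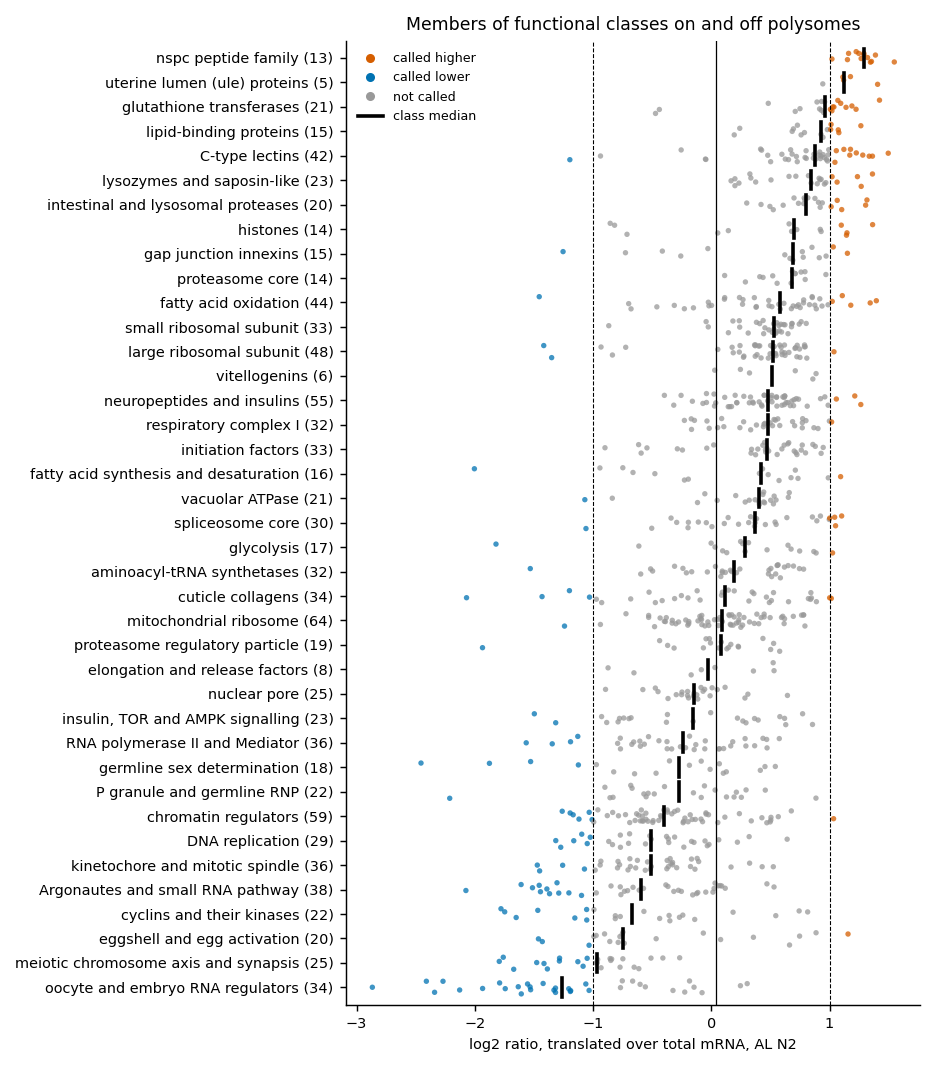
Log2 ratio of translated over total mRNA in AL N2 for the members of 39 functional classes, ordered by class median, with the number of members kept in parentheses. Orange and blue points were called higher and lower, grey points were not called, black bars are class medians, the solid line is the median of all 8224 genes (0.04) and dashed lines mark 2-fold. Germline regulators, meiosis and cell cycle classes lie at the bottom with medians down to -1.26, and secreted and detoxifying classes at the top with medians up to 1.29 in classes that include the ule and nspc lists, added after their values had been seen.

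Genes were then grouped into 70 classes by gene name or by lists of known members. Of the 67 classes with at least 5 members kept, 3 (germline sex determination, ule and nspc) were listed after their values had been seen. Of the other 64, 16 had a median ratio above 0.5 and 7 a median below -0.5. The plot of class members shows that the lower end was occupied by classes of the germ line and the upper end by secreted proteins, detoxification enzymes and lipid carriers. Each class is described by its counts and its median, beside 4.83% of all genes called higher and 11.3% called lower.

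The lowest median of the 67 classes was that of the RNA-binding proteins and fate determinants of the oocyte and early embryo. All 34 listed genes passed the expression filter, 22 of the 34 (64.7%) were lower in translated mRNA, and the class median was -1.26. Medians taken with each translated library alone ran from -1.27 to -1.25. nos-2, a Nanos-family protein needed by the primordial germ cells of the embryo, was the lowest, with 152, 154, 154 and 146 CPM in total mRNA and 18.3, 23.96, 20.6 and 18.9 CPM in translated mRNA. Its ratio was -2.87 ± 0.07 (SE, adjusted p = 3.39e-32), and every translated library lay far below every total library. It shares 12.4% of its exon bases with another gene. nos-1, the Nanos gene of the larval germ line, had 58.2, 63.3, 58.7 and 61.6 CPM in total mRNA and 12.7, 10.4, 12.4 and 10.8 CPM in translated mRNA. pal-1, the Caudal homeodomain protein that specifies posterior fates in the embryo, had 210.1, 208, 196 and 201 CPM in total mRNA and 38.6, 39.3, 39.1 and 34.9 CPM in translated mRNA, a ratio of -2.41 ± 0.04. mom-2, the Wnt ligand that polarises an early embryonic cell, had 247, 253, 249.9 and 243 CPM in total mRNA and 50.9, 53.6, 49.6 and 50.1 CPM in translated mRNA. apx-1, a ligand of the Notch pathway in the embryo, and glp-1, the Notch receptor that keeps the germline stem cells dividing, had ratios of -1.74 and -1.53. mom-2 and apx-1 encode signalling ligands and glp-1 a receptor, and they lay as low as the RNA-binding proteins of the list.

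PUF proteins repress mRNAs through their 3′ ends. The mRNAs of puf-3, puf-5, puf-6, puf-7, puf-8 and puf-11 had ratios of -1.32, -1.55, -2.13, -1.79, -1.19 and -1.32, all called lower. puf-5 was the most abundant member of the class, with 1213, 1239, 1250.5 and 1275 CPM in total mRNA and 412, 432, 427 and 423 CPM in translated mRNA. puf-9 (0.30), a PUF gene of somatic tissues, and fbf-2 (0.25), which sustains germline stem cells, had the highest ratios of the class and were not called. fbf-1 had a ratio of -0.56. Ratios thus differed between PUF genes. Paralogs of very similar sequence may share reads, so the values of single members of the puf-3 and puf-11 pair and of the puf-6 and puf-7 pair are uncertain.

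Among the other regulators, gld-1, a KH-domain protein that blocks translation of many oocyte mRNAs in the meiotic zone of the gonad, had 844, 828, 850.0 and 835 CPM in total mRNA and 308, 285, 293 and 278 CPM in translated mRNA. Its ratio was -1.53 ± 0.04. The CCCH zinc-finger genes pos-1, mex-5, mex-6, oma-1 and oma-2, which act in the oocyte and the early embryo, had ratios of -1.61, -1.19, -1.42, -1.06 and -1.21. spn-4, an RNA-binding protein of the embryo, was abundant in total mRNA, with 1007, 1008, 1002 and 1012 CPM in total mRNA and 335, 333, 319 and 312 CPM in translated mRNA. pie-1 and mex-1, from the same CCCH family, had ratios of -0.60 and -0.75 and were below 0 by less than 2-fold. gld-2, a poly(A) polymerase that activates stored mRNAs, had a ratio of -0.15, and its pools overlapped. larp-1 (-0.18), atx-2 (-0.22) and nos-3 (-0.32) were also near 0. Each of these genes stands in the plot of oocyte and embryo regulators.

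**Figure D3:**
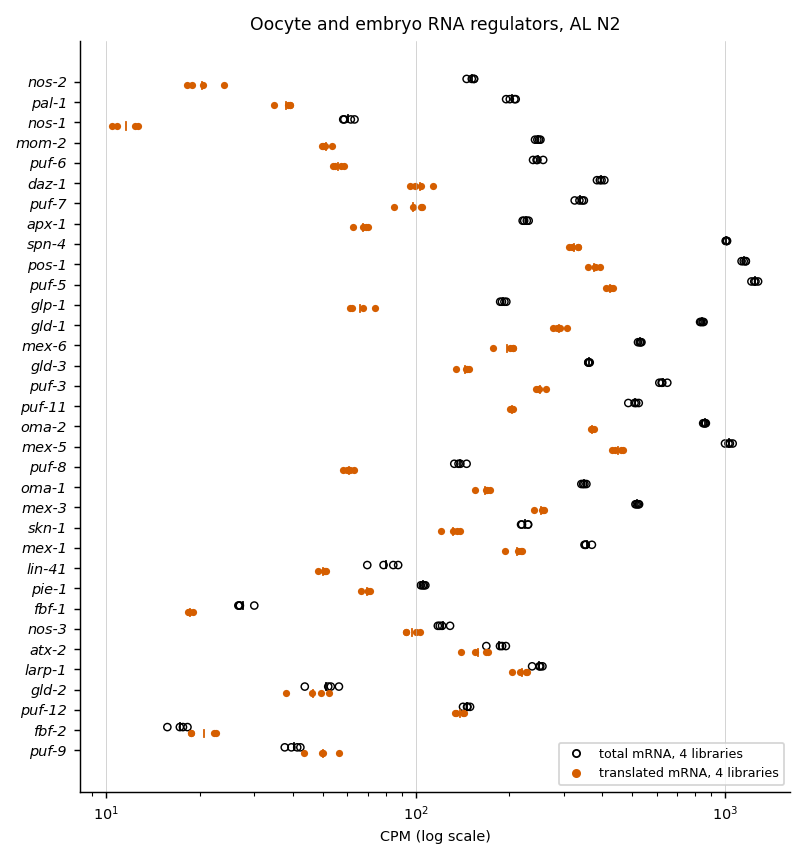
CPM (log axis) in each AL library for the 34 RNA-binding proteins and fate determinants of the oocyte and early embryo. Genes are ordered from the lowest log2 ratio (top) to the highest (bottom). Open circles are the 4 total libraries, filled circles the 4 translated libraries, and short vertical lines the group means. The 22 called genes, nos-2 to mex-3, are separated between pools, while the pools of atx-2, gld-2 and puf-12 near the bottom overlap.

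Sex determination of the germ line showed the same split between members. fem-3, which promotes male fate and is repressed so that oogenesis can begin, had 127, 138, 132 and 123 CPM in total mRNA and 24.2, 23.7, 24.5 and 20.9 CPM in translated mRNA, a ratio of -2.45 ± 0.06. fog-1, a CPEB-family protein needed for sperm fate, had 107, 103.9, 108 and 103 CPM in total mRNA and 26.8, 29.2, 29.99 and 27.6 CPM in translated mRNA. tra-2, the membrane protein that promotes female fate, had 84.4, 76.3, 84.1 and 85.5 CPM in total mRNA and 40.05, 39.3, 35.8 and 35.4 CPM in translated mRNA. The remaining members kept, apart from gld-1, were not called: fog-2 was at -0.97, fem-1 at -0.47, tra-1 at -0.01, and the splicing-related mog-2 was the highest at 0.54. The class held 18 genes with a median of -0.27, and 4 were lower; the list was added after its values had been seen and is not read against the background. cpb-1, another CPEB-family gene of the germ line, had 107, 106, 108 and 100.4 CPM in total mRNA and 24.6, 20.4, 21.4 and 23.2 CPM in translated mRNA.

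The proteins of germ granules and of germline ribonucleoprotein particles had ratios on both sides of 0. Of 22 genes in that class, cpb-1 was the only one called, against 11.3% of all genes, and the median was -0.27. The Vasa-family helicase glh-1 had 406, 376, 395 and 388 CPM in total mRNA and 453, 460.1, 439 and 437 CPM in translated mRNA, and pgl-3, a granule scaffold, had a ratio of 0.29. car-1, a repressor found in the same particles, had 905, 901, 872 and 917 CPM in total mRNA and 1703, 1682, 1674 and 1585 CPM in translated mRNA. cey-2, a cold-shock domain protein and the most abundant member, had a ratio of 0.21. cey-4 (-0.83) and deps-1 (-0.86) were below 0. These mRNAs are made in the same tissue as nos-2 and gld-1, and glh-1, pgl-3, ifet-1 and car-1 had ratios above 0.

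Meiotic genes were low as a group. All 25 listed genes of the chromosome axis, of synapsis and of recombination were kept, all had a ratio below 0, and 11 (44%) were called lower, with a class median of -0.96. spo-11, the enzyme that cuts DNA to start recombination, had 51.997, 52.2, 54.4 and 51.95 CPM in total mRNA and 16.3, 13.9, 14.4 and 16.4 CPM in translated mRNA. rec-8, the meiotic cohesin, had 78.3, 78.9, 83.2 and 80.8 CPM in total mRNA and 31.5, 28.7, 29.8 and 29.2 CPM in translated mRNA. The pairing proteins zim-1 and zim-2 had ratios of -1.67 and -1.79, and share 11.02 and 9.46% of their exon bases with another gene. him-5, which promotes breaks on chromosome X, was at -1.48. him-3, an axis protein and the most abundant member, had 124, 123, 127 and 123 CPM in total mRNA and 69.9, 67.9, 65.9 and 70.1 CPM in translated mRNA, a ratio of -0.86. The highest members were the synaptonemal complex gene syp-3 (-0.27) and the axis gene htp-2 (-0.41), so no member of the list was above 0.

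Cell division genes followed the same direction with smaller ratios. Of 22 cyclins and their kinases, 7 were lower and the median was -0.67. The B-type cyclins cyb-2.1 and cyb-2.2 had 322, 331, 322 and 327 and 439.7, 443, 435 and 436 CPM in total mRNA. In translated mRNA they had 95.3, 94.2, 92.4 and 95.9 and 158, 161, 159 and 156 CPM. cyb-3, the most abundant cyclin, had a ratio of only -0.27. cyd-1 and cdk-4, the cyclin D and kinase that start the cell cycle in somatic lineages, had ratios of 0.81 and 0.74. DNA replication genes had a median of -0.51, with 6 of 29 lower, among them the origin recognition genes orc-1 (-1.32) and orc-5 (-1.27). The sliding clamp pcn-1 (0.06) and both ribonucleotide reductase subunits, rnr-1 (-0.02) and rnr-2 (-0.23), were near 0. Kinetochore and spindle genes had a median of -0.51 with 4 of 36 lower, a share near that of all genes. ndc-80, an outer kinetochore protein, had 154, 160.0, 170.4 and 160.3 CPM in total mRNA and 59.8, 60.6, 55.9 and 54.99 CPM in translated mRNA, and the centriole proteins sas-4 and sas-5 had ratios of -1.26 and -1.45. The minus-end kinesins klp-15 and klp-16, which build the acentrosomal meiotic spindle, were lower at -1.40 and -1.24; they are close paralogs, and their reads may be split between them.

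Egg coat and egg activation genes divided. The class median was -0.75 over 20 of 28 genes kept, with 3 lower and 1 higher. egg-4 and egg-5, a pair of nearly identical pseudophosphatases that hold the kinase mbk-2 inactive in the oocyte, had ratios of -1.43 and -1.46, and mbk-2 itself was at -0.97. cbd-1, a chitin-binding protein of the outer egg coat, had 2655, 2519, 2688 and 2713 CPM in total mRNA and 1310.0, 1301, 1330.0 and 1224 CPM in translated mRNA. cpg-1 and cpg-2, chondroitin proteoglycans of the same coat, had ratios of -0.77 and -0.74, and the chitin synthase chs-1 was at -0.79. perm-4, a protein of the permeability barrier, went the other way, with 2769, 2712, 2709.7 and 2843 CPM in total mRNA and 6349, 6198, 6237 and 5822 CPM in translated mRNA. Its ratio was 1.16 ± 0.03 (adjusted p = 8.94e-32). perm-2 (0.75), which acts with perm-4, and cpg-3 (0.89) were also above 0.

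The small RNA machinery was lower than most. Of 38 Argonaute and small RNA pathway genes kept from 43, 11 (28.9%) were lower, and the median was -0.59. hrde-1, the nuclear Argonaute of the germ line and the most abundant member, had 769, 739, 791 and 785 CPM in total mRNA and 319.8, 312, 328 and 288 CPM in translated mRNA, a ratio of -1.305 ± 0.03. ergo-1, the Argonaute of a class of small RNAs made in oocytes and embryos, had a ratio of -1.44, and alg-5, an Argonaute of the germ line, had 143, 139, 145 and 147 CPM in total mRNA and 35.7, 31.5, 35.2 and 32.5 CPM in translated mRNA. mut-2, a nucleotidyltransferase, was at -1.61. The microRNA Argonautes alg-1 and alg-2 had ratios of 0.09 and 0.53, and csr-1, which is required for chromosome segregation, was at 0.12 with overlapping pools.

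Chromatin regulators and the transcription machinery had medians below 0, with a share of lower calls near that of all genes. Chromatin regulators had a median of -0.40 and 6 of 59 lower (10.2%, against 11.3% of all genes), among them the sirtuin sir-2.4 (-1.26) and the retinoblastoma homolog lin-35 (-1.19). In the RNA polymerase II and Mediator class, which had a median of -0.24 and 4 of 36 genes lower, the called genes were Mediator subunits, mdt-6 (-1.57), mdt-8 (-1.35), mdt-22 (-1.19) and mdt-27 (-1.13). mdt-15, the subunit that regulates fat metabolism, was at 0.37. lin-26, a zinc-finger protein that maintains epidermal fate, had 129, 129, 129 and 125 CPM in total mRNA and 32.2, 34.7, 35.3 and 33.0 CPM in translated mRNA and was the lowest of the developmental transcription factors, a class with a median of 0.38 and 4 of 38 genes lower. The hormone receptor gene nhr-23, which drives molting in larvae, had 57.0, 55.3, 63.1 and 56.6 CPM in total mRNA and 17.01, 19.2, 20.4 and 14.3 CPM in translated mRNA, while the nuclear hormone receptors as a class had a median of 0.33 over 64 genes. Adult col-19, the collagen used as a marker of the adult epidermis, was lower too, with 298, 282, 258 and 299.6 CPM in total mRNA and 102, 107, 111.9 and 99.0 CPM in translated mRNA. Hypodermis markers as a list summed to 389 to 429 CPM in total and 133 to 149 CPM in translated mRNA, nearly all of it from col-19 and lin-26 themselves, since the other 5 of the 7 markers averaged below 1 CPM in each pool, so the list is not separate from these genes. Nutrient-signalling genes had a median of -0.15, with 2 of 23 lower (8.7%, against 11.3% of all genes). daf-15, the Raptor subunit of TOR complex I, had 122.03, 119.8, 131 and 121 CPM in total mRNA and 51.5, 48.0, 48.9 and 48.7 CPM in translated mRNA, a ratio of -1.32 ± 0.05. The insulin receptor gene daf-2 was at -0.68, akt-1 at -0.79 and the transcription factor gene daf-16 at -0.37. The kinases sgk-1 (0.86) and aak-2 (0.77), a catalytic subunit of AMPK, were above 0. rsks-1, which encodes S6 kinase, was at 0.22, and let-363, which encodes TOR, at -0.15.

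On the upper side, secreted defence and digestive proteins and the glutathione transferases, which are detoxification enzymes, had medians above that of all genes. Lysozymes and saposin-like proteins, C-type lectins, intestinal and lysosomal proteases and glutathione transferases held 106 genes between them, of which 30 (28.3%) were higher, and their joint median was 0.90. These classes were joined as a description only, and their lists were chosen with earlier results of these data known. The glutathione transferases were 21 of these genes and gave 10 of the higher calls. The medians of the lysozyme, lectin and protease classes alone were 0.84, 0.88 and 0.80. The summed level of all 106 genes was 22088 to 22867 CPM in total and 37770.2 to 38804 CPM in translated mRNA, with no overlap between pools. lys-7, a lysozyme used against bacteria, had 1376, 1387, 1361 and 1430.3 CPM in total mRNA and 3364, 3398, 3309 and 3306 CPM in translated mRNA. Its ratio was 1.27 ± 0.03 (adjusted p = 1.56e-33). lys-8 had 652, 633, 636 and 651 CPM in total mRNA and 1369.7, 1356, 1328 and 1326 CPM in translated mRNA, and ilys-5, an invertebrate-type lysozyme, a ratio of 1.24. The saposin-like genes spp-17 (0.17) and spp-16 (0.20) were lowest, and no member of the lysozyme and saposin class was below 0.

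C-type lectins had 10 of 42 kept genes higher, with a median of 0.88, out of 240 annotated. clec-63, one of the most abundant, had 1533, 1508, 1463 and 1578 CPM in total mRNA and 2692, 2655, 2675 and 2579 CPM in translated mRNA, a ratio of 0.80. clec-87, the most abundant in total mRNA, was the exception, with 1751, 1725, 1759.6 and 1804 CPM in total mRNA and 768, 771, 777 and 754 CPM in translated mRNA, a ratio of -1.196 ± 0.02. clec-88 was at -0.94. All 20 proteases kept had a ratio above 0, and 5 were higher. They included the cathepsin B-like cpr-6, with 586, 578, 577 and 589 CPM in total mRNA and 1472, 1497, 1417 and 1421 CPM in translated mRNA, the cathepsin D-like asp-4 (1.06), the cathepsin Z-like cpz-1 (1.103) and the cathepsin L-like cpl-1 (1.01, or 0.986 without total replicate 3). asp-6, the most abundant protease, had a ratio of 0.30.

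Detoxification and lipid transport genes lay high as well. Glutathione transferases, already part of the joint count above, had 10 of 21 higher and a median of 0.96. gst-24 was the most abundant, with 362, 369.8, 338 and 363 CPM in total mRNA and 735, 755, 756 and 761 CPM in translated mRNA. The kappa-class gene gstk-1 was at 1.14, while its relative gstk-2 was at -0.47. All 15 kept lipid-binding proteins were above 0 and 5 were higher, with a median of 0.93. lbp-9, a fatty acid-binding protein, had 422, 446, 439 and 450.2 CPM in total mRNA and 1036, 1047, 1059 and 1084 CPM in translated mRNA, and lbp-1, lbp-2 and far-3 had ratios of 1.08, 1.01 and 1.07. lbp-2 was at 0.995 without total replicate 4 and at 0.997 without translated replicate 2, just under 2-fold. far-2, the most abundant of them, had a ratio of 0.24. Among iron and metal proteins, the ferritins ftn-1 and ftn-2 were both higher, at 1.37 and 1.09. Superoxide dismutase genes sod-1, sod-2 and sod-4 had ratios of 0.98, 0.89 and 1.11. UDP-glycosyltransferases (29 kept, median 0.55) and cytochrome P450 genes (20 kept, median 0.49) were above the median of all genes, with 1 higher call between them, cyp-37A1 (1.07), and 1 lower call, cyp-44A1 (-1.42), a mitochondrial-type P450.

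Some further groups of small proteins were defined after their values had been seen and are described without a reading against the background. The 5 uterine lumen genes ule-1 to ule-5 had ratios of 1.12, 1.11, 0.94, 1.18 and 1.41. ule-5 had 1094, 1121, 1124 and 1122 CPM in total mRNA and 2938, 2967, 2927 and 3000.4 CPM in translated mRNA. The nspc peptide family, X-linked genes of about 300 nt, had 13 of 18 genes kept, between 1.02 and 1.55, and nspc-14, the most abundant, had 70.2, 72.2, 69.0 and 71.3 CPM in total mRNA and 168, 179, 167 and 179.9 CPM in translated mRNA. The members are close to identical in sequence, so reads may move between them, and the 13 values are not separate measurements.

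The yolk mRNAs vit-2 and vit-6 were the most abundant of all genes kept. vit-2 had 17708, 16554, 17402 and 17672 CPM in total mRNA and 18569, 17749, 18000.3 and 16468 CPM in translated mRNA, a ratio of 0.03 ± 0.03, and its pools overlapped. vit-6 (0.25) and vit-5 (0.32) were above 0 by less than 2-fold, as were the rarer vit-1 (0.86), vit-3 (0.89) and vit-4 (0.71). vit-3, vit-4 and vit-5 are near-identical, so their split is uncertain. The intestinal actin act-5, which builds the microvilli, had 188, 183.3, 186 and 192 CPM in total mRNA and 448, 419.9, 446 and 398 CPM in translated mRNA, a ratio of 1.19 ± 0.03, and was the only called gene among 16 actin, tropomyosin and troponin genes. The 15 innexin genes kept, which form gap junctions, had a median of 0.69, with inx-7 (-1.25) the only one lower. The next 5 innexins were chosen after their values were seen, and the difference between the sides of the junction was not tested. inx-8 and inx-9, the innexins of the gonadal sheath, had ratios of 1.15 and 0.91, and inx-8 had 124, 123, 121.8 and 117 CPM in total mRNA and 274, 277, 261 and 269 CPM in translated mRNA. inx-14, inx-21 and inx-22, the innexins on the germ cell side of the same junctions, had ratios of -0.26, -0.73 and -0.41.

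Messenger RNAs of the translation machinery were tightly grouped. Of 81 ribosomal proteins kept from 84, 72 had a ratio above 0 at an adjusted p below 0.05, against 44.6% of all genes, the median was 0.53 and the middle 50% of genes lay between 0.37 and 0.62. The 3 that passed 2-fold, rla-0, rpl-41.1 and rpl-11.1, are described below. Their summed level was 129414 to 133918 CPM in total and 180718 to 181678 CPM in translated mRNA. rps-3, of the small subunit, had 3157, 3120.2, 3194 and 3271 CPM in total mRNA and 4747, 4661, 4646 and 4600.2 CPM in translated mRNA. rpl-10, of the large subunit, had a ratio of 0.54.

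A few ribosomal protein mRNAs stood far from the rest. rla-0, the P0 protein of the ribosomal stalk, had 5294, 5270.4, 5332 and 5376 CPM in total mRNA and 2018, 2012, 2004 and 1933 CPM in translated mRNA. Its ratio was -1.42 ± 0.02 (adjusted p = 6.96e-37), although it was the most abundant of the 81 in total mRNA. rla-1, a P1 protein of the same stalk, was at -0.93, and rla-2, a P2 protein, at 0.81. rps-12 had 986, 1028, 1008 and 1050.4 CPM in total mRNA and 547, 559, 565 and 561 CPM in translated mRNA, a ratio of -0.87, while every other small-subunit gene lay at or above -0.04. The paralogs of rpl-11 went apart: rpl-11.1 had 1925, 1891, 1854 and 1880.1 CPM in total mRNA and 3893, 3897, 3786 and 3924 CPM in translated mRNA and rpl-11.2 had 977, 989, 911 and 1003 CPM in total mRNA and 593, 585, 594 and 575 CPM in translated mRNA. rpl-41.1 (-1.35) and rpl-25.1 (-0.84) were low too.

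Elongation and release factors had a median of -0.03, whose sign changed under other scalings. eef-1A.1, the most abundant mRNA of the machinery, had 11154, 10868, 11348 and 11194 CPM in total mRNA and 11763, 11401, 11597 and 10794 CPM in translated mRNA, a ratio of 0.03 with overlapping pools. eef-1G, the gamma subunit of the exchange factor of EF1A, had 2218, 2242, 2252 and 2243 CPM in total mRNA and 1236, 1251, 1189.8 and 1212 CPM in translated mRNA, a ratio of -0.87 ± 0.03. eef-1B.1, another subunit of that factor, was at -0.65, and eef-2, which moves the ribosome along, at -0.17. The poly(A)-binding protein gene pab-1, named after its value was seen, had 2642, 2546, 2593 and 2679 CPM in total mRNA and 1576, 1532, 1561 and 1448 CPM in translated mRNA, a ratio of -0.77. Initiation factors had a median of 0.47, and none of the 33 genes passed 2-fold by limma or edgeR. At an adjusted p below 0.05, 25 of them were above 0, against 44.6% of all genes, and 6 below 0, against 3458 of 8224 genes; the counts were the same at an unadjusted p below 0.05. The cap-binding isoforms ife-2 and ife-4 were at 0.93 and 0.95, and the germline isoform ife-5 at -0.90. The subunits eif-3.I (0.88) and eif-1.A (0.86) were among the highest, while eif-2A was at -0.61. Aminoacyl-tRNA synthetases had a median of 0.19. rars-2, the mitochondrial arginine enzyme, was the only one called, with 87.2, 90.4, 92.5 and 86.0 CPM in total mRNA and 31.2, 31.9, 30.9 and 27.9 CPM in translated mRNA. Mitochondrial ribosomal proteins had a median of 0.09, below the cytosolic ones, which turned to below 0 when values were scaled to reads on protein-coding genes. mrpl-18 was called lower, at -1.24.

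Proteasome core genes moved together. The 14 subunits of the proteasome core all had a ratio above 0 at an adjusted p below 0.05, against 44.6% of all genes, with a median of 0.68 and none past 2-fold by limma or edgeR. pas-2 was the highest, with 205, 206, 217 and 211 CPM in total mRNA and 412, 416, 403 and 413 CPM in translated mRNA. The 19 kept genes of the regulatory particle had a median of 0.08, which also turned to below 0 under the scaling to protein-coding reads. rpn-6.2, a paralog of rpn-6.1, was lower at -1.93. Skp1-related genes stood out among ubiquitin ligase components: skr-7, skr-10, skr-12, skr-13 and skr-14 were all higher, with ratios of 1.13, 1.09, 1.16, 1.35 and 1.12, and skr-7 had 175, 179, 176 and 176 CPM in total mRNA and 389.8, 389.6, 376 and 393 CPM in translated mRNA. skr-1, the most abundant, was at 0.02 with overlapping pools. The 5 higher genes are related in sequence and may share reads.

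Energy metabolism was above the median of all genes with few calls. Complex I had a median of 0.48 over 32 nuclear genes and 1 call, ndub-3 (1.02, but 0.993 to 0.999 without total replicate 1 or 4 or translated replicate 2), and ATP synthase a median of 0.29 with mai-2 (1.17), an inhibitory subunit, called higher. The citric acid cycle had a median of 0.43, and glycolysis one of 0.29. hxk-1, a hexokinase, was the lowest in glycolysis, with 366, 362, 359 and 370.2 CPM in total mRNA and 100.4, 103.7, 103 and 103.9 CPM in translated mRNA, a ratio of -1.82 ± 0.03 (adjusted p = 8.22e-36). Another hexokinase gene, hxk-2, was at -0.61 (limma, adjusted p = 1.27e-13). By contrast tpi-1, the triose phosphate isomerase, had 220.4, 241, 219.5 and 209 CPM in total mRNA and 462, 450.04, 448 and 451 CPM in translated mRNA, a ratio of 1.03 that was 0.997 without total replicate 4. enol-1, the enolase and the most abundant of the pathway, was at 0.03. The vacuolar ATPase had a median of 0.41 with vha-7 (-1.07) lower.

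Enzymes of fatty acid synthesis and desaturation lay on both sides of 0. fat-2, the desaturase that commits oleic acid to the polyunsaturated series, had 760.0, 770.4, 750.2 and 771 CPM in total mRNA and 194, 192, 189 and 184 CPM in translated mRNA, a ratio of -2.003 ± 0.03 (adjusted p = 1.28e-39). Other enzymes of polyunsaturated fatty acid synthesis, fat-1, fat-3, fat-4 and elo-1, had ratios of -0.75, -0.19, -0.94 and -0.66. fat-5 and fat-6, desaturases that make the monounsaturated acids, had ratios of 1.09 and 0.71, and elo-5 and elo-6, elongases of branched-chain acids, of 0.67 and 0.99. fat-5 was called higher, with 112.4, 107, 103 and 119.9 CPM in total mRNA and 234, 239.7, 243 and 227 CPM in translated mRNA. The acetyl-CoA carboxylase pod-2 and the fatty acid synthase fasn-1 were at 0.41 and 0.43. The elongase gene elo-2, not listed above, was also among the highest of the class. This grouping of members by product was chosen from the values and was not tested. Fatty acid oxidation had 5 of 44 genes higher, a median of 0.58, and the peroxisomal genes daf-22 (1.11) and maoc-1 (1.18) among them. hacd-1 had 76.8, 73.6, 74.0 and 77.8 CPM in total mRNA and 206, 196, 191 and 205 CPM in translated mRNA. acs-19, an acyl-CoA synthetase, was lower, with 429, 423, 435 and 435 CPM in total mRNA and 154, 157, 159.5 and 156 CPM in translated mRNA, and cpt-1, the gate to mitochondrial oxidation, was at -0.70. Of the S-adenosylmethionine synthetases, sams-3 (-1.01) and sams-4 (-1.04) were lower (sams-3 was at -0.970 without translated replicate 4) and sams-1 was at 0.52.

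Histone genes with polyadenylated transcripts also differed by variant. The H1 variants his-24, hil-1 and hil-3 were higher, at 1.36, 1.15 and 1.099, and hil-4 and hil-5 were at -0.85 and -0.82. The H3.3 gene his-72 had 549, 554, 546 and 566 CPM in total mRNA and 1080.1, 1052, 1057 and 1009.9 CPM in translated mRNA, a ratio of 0.92, and his-71, also H3.3, was called higher at 1.14. his-24 shares 18.9% of its exon bases with another gene. Of 30 spliceosome core genes, 4 were higher (13.3%, against 4.83% of all genes) and 1 was lower, with a median of 0.37. The higher genes included some of the Sm protein genes, snr-1, snr-5 and snr-6, at 1.103, 1.001 and 1.05. Without total replicate 1 or 2 or translated replicate 3 or 4, snr-5 was at 0.983 to 0.991. The spliceosome factor gene prp-38 was lower at -1.06. Neuropeptide and insulin genes had a median of 0.48 over 55 kept genes, with nlp-40, an intestinal peptide that paces defecation, at 0.70. Muscle thick filament genes were spread about 0, from the pharyngeal myosin myo-1 (-0.86) to mlc-7 (0.70), and their median of -0.02 changed sign under other scalings and when 1 library was left out. Cuticle collagens had a median of 0.12, which changed sign under other scalings, and the lowest of them was col-183 (-2.07).

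The ratio was related to coding length and to chromosome. Over 8224 genes, the Spearman correlation of the ratio with coding length was -0.26, given as a description across genes that share the same 8 libraries. With no filter on low values it was -0.17. Genes with over 300 and up to 600 nt of coding sequence had the highest median, 0.47, with 161 of 1223 (13.2%) higher. The median was 0.02 at over 900 and up to 1200 nt, and -0.20 at over 1800 and up to 2400 nt, where 8 of 891 genes were higher and 13.02% lower. Above 6000 nt, 131 genes had a median of 0.05. Lower calls were most frequent between 900 and 2400 nt, at 13.02 to 14.3% of genes, and made up 7.45% of genes of 300 nt or less. Short coding sequences are also typical of ribosomal proteins, lysozymes and nspc peptides, so length and class were not separated.

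Chromosome X stood apart from the autosomes. The 1036 X-linked genes kept had a median of 0.48, with 93 (8.98%) higher and 10 (0.965%) lower. The 7188 autosomal genes had a median of -0.05, with 304 (4.23%) higher and 920 (12.8%) lower. The difference of the medians was 0.535 and lay between 0.536 and 0.545 when any 1 AL library was left out. Chromosome I had the lowest median, -0.16, and chromosome V the highest of the autosomes, 0.11. The plot of coding length shows the X above the autosomes in every length bin up to 6000 nt, with medians of 0.54 and 0.31 at 300 nt or less and of 0.81 and 0.38 at over 300 and up to 600 nt. Above 6000 nt the medians were 0.06 on X and 0.05 on the autosomes. With no filter on low values the difference of medians was 0.23.

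**Figure D4:**
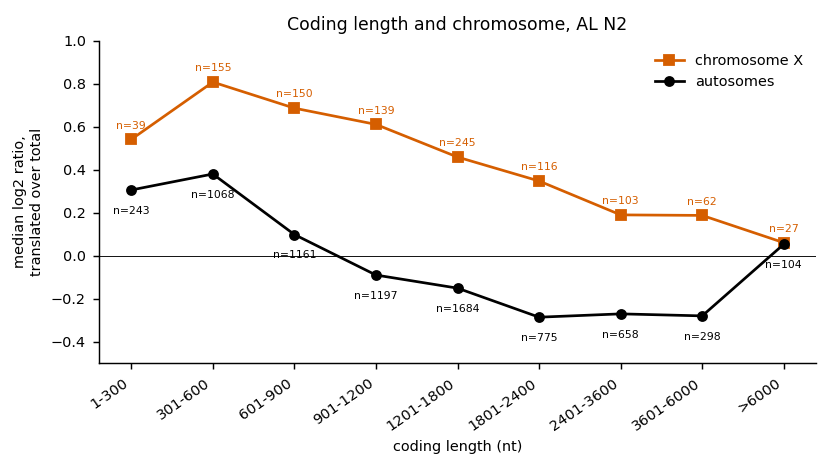
Median log2 ratio of translated over total mRNA in AL N2 (y axis) by coding length in nucleotides (x axis, bins of unequal width), for chromosome X (squares) and autosomes (circles), with the number of genes at each point. The X lies above the autosomes in each bin up to 6000 nt, and both lines are lower at long lengths, going from the bin ending at 600 nt, with medians of 0.81 and 0.38, to that ending at 6000 nt, with medians of 0.19 and -0.28.

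The AL ratios were then set beside those of DR N2 and of AL daf-2;rsks-1. Both differences use the same AL libraries, so they share their controls. The ratio differed by at least 2-fold at an adjusted p below 0.05 (limma interaction) in 316 genes (3.84%) that were higher and 147 (1.79%) that were lower in DR, and in 41 (0.499%) that were higher and 102 (1.24%) that were lower in daf-2;rsks-1. rRNA took 11.5 to 20.9% of reads in the 4 DR translated libraries, against 1.88 to 7.77% in AL translated libraries, and its part in these differences was not tested. The median ratio of all genes was -0.03 in DR and -0.01 in daf-2;rsks-1.

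**Figure D5:**
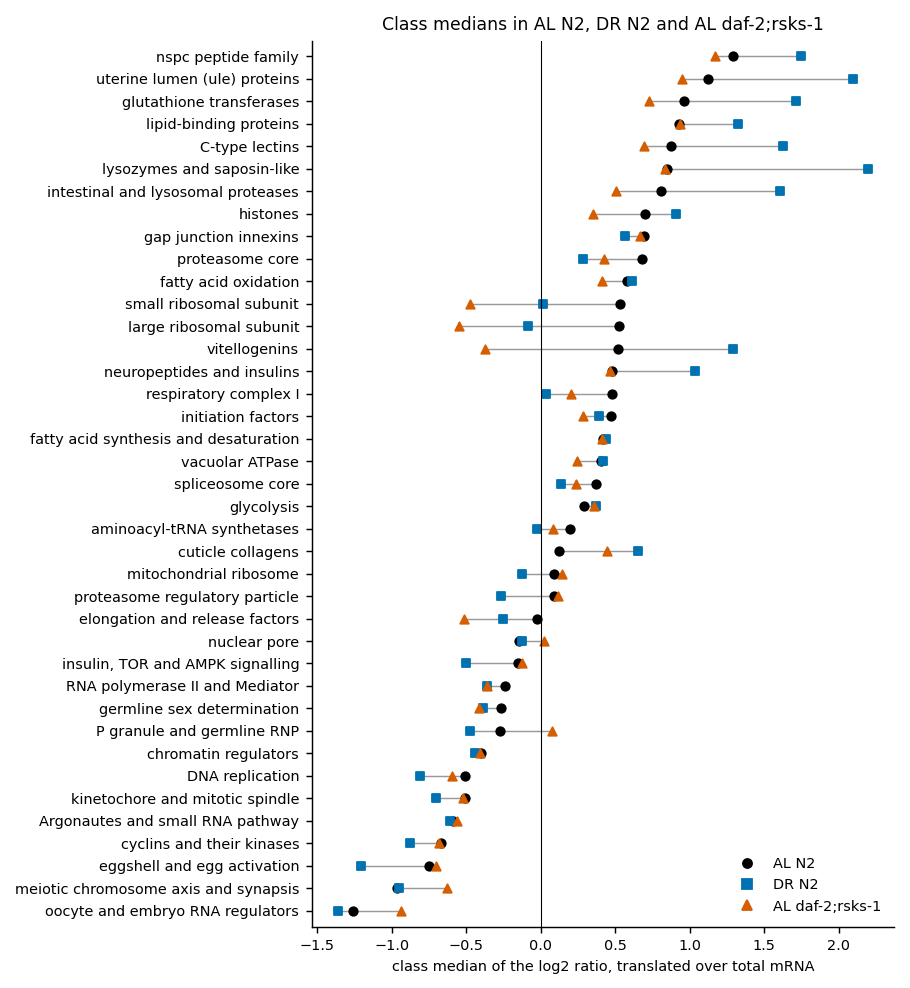
Class medians of the log2 ratio of translated over total mRNA in AL N2 (circles), DR N2 (squares) and AL daf-2;rsks-1 (triangles) for the 39 classes shown among the class members. Medians of the oocyte regulators and of meiosis are below -0.6 in all 3 conditions, those of the lysozymes, lectins and proteases are further right in DR, and those of the ribosomal subunits are near -0.5 in daf-2;rsks-1.

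Oocyte regulators and meiotic genes kept low medians in all 3 conditions. Oocyte and embryo regulators had a median of -1.36 in DR and -0.94 in daf-2;rsks-1, and meiotic genes -0.95 and -0.63. In daf-2;rsks-1 the ratio was higher than in AL N2 for 4 of the 34 oocyte regulators, nos-1, mom-2, apx-1 and gld-1, against 0.499% of all genes, and for 4 of 25 meiotic genes, spo-11, him-5, coh-4 and him-3. For gld-1 the difference was 1.17 ± 0.06 (SE, adjusted p = 3.61e-18). puf-12 was lower in the mutant by the same test, at -1.13. nos-2 was the only oocyte regulator whose ratio was higher in DR by at least 2-fold, by 1.22 ± 0.09. fem-3 was higher in daf-2;rsks-1, by 1.11 ± 0.08.

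Some lysozymes, lectins, transferases and proteases had a higher ratio in DR than in AL, while most members of the lectin and protease classes were not called. The ratio was higher in DR than in AL for 16 of 23 lysozyme and saposin genes, 13 of 42 C-type lectins, 6 of 21 glutathione transferases and 5 of 20 proteases, against 3.84% of all genes. Of 8 antimicrobial cnc and nlp peptide genes, 1 was lower in DR, against 1.79% of all genes. The median of the lysozyme class was 2.19 in DR against 0.84 in AL. For lys-7 the difference was 1.99 ± 0.04 (adjusted p = 4.05e-34). Neuropeptide and insulin genes were higher in DR in 13 of 55 cases and lower in 1, and cuticle collagens were higher in 8 of 34.

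Ribosomal protein mRNAs had a lower translated to total ratio in daf-2;rsks-1. The ratio was lower in daf-2;rsks-1 than in AL N2 for 45 of 81 genes (55.6%), against 1.24% of all genes, and the class median went from 0.53 to -0.53. In DR the median was -0.03, and 7 of 81 were lower by 2-fold, against 1.79% of all genes. rps-3 was lower in the mutant by the interaction, at -1.03 ± 0.06 (SE, adjusted p = 2.43e-18). The stalk gene rla-0, already low in AL, differed by -0.14 in the mutant and was not called. iff-1, the germline form of eIF5A and the most abundant initiation factor, had a ratio of 0.65 in AL and was lower in both other conditions, by -1.51 in DR and -1.57 in daf-2;rsks-1.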

How the data were processed

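RNA-seq of total and polysomal polyadenylated RNA was analysed for the 8 AL N2 libraries, with DR N2 and daf-2;rsks-1 libraries for the differences between conditions (24 in all). The authors aligned paired, unstranded reads to WS220 with TopHat, counted them per gene with HTSeq 0.6.1 and scaled them with edgeR 3.0 for RNA composition; the deposited values are a CPM signal of the normalised library size. Every value was a whole number of reads within 0.05 reads (100% of values), so reads were recovered from them. The design had assumed plain CPM, but the column sums differ from those of CPM.

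Values were tested as log2(CPM + 0.5) with limma 3.58.1 (R 4.3.3), trend and Benjamini-Hochberg adjustment, in 1 fit of 16 N2 libraries, or of 24 for daf-2;rsks-1. Protein-coding genes averaging 8 CPM or more were kept. A call needed an adjusted p below 0.05 and a 2-fold difference. The fits were first tested on simulated data. edgeR 4.0.16 (quasi-likelihood) on the recovered reads called 444 genes higher and 953 lower. Of 45461 table rows, 44936 matched the annotation.

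The rule for named genes took the 12 highest and 12 lowest ratios among called genes whose pools did not overlap. It also took the extremes and most abundant member of each class, and the cell markers. Other genes named were chosen after their values were seen, and 1 gene is not reported here. The classes were chosen with earlier results of these data known, and the germline sex determination, ule and nspc lists were added after values had been seen. Alternatives covered the pseudocount, filter, scaling, test, replicate block, fitted samples, gene types and each library left out. The alternative of genes sharing no exon bases was chosen after seeing the data.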

Additional observations from a re-analysis of the deposited data

Results flagged for a closer look

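The translated to total ratio of 55 gene and condition pairs among the genes named differed from that in AL N2 by at least 2-fold at an adjusted p below 0.05 in the limma interaction. The log2 ratio was higher in DR than in AL by the difference given in parentheses for F23A7.8 (2.88), col-183 (2.46), F23A7.4 (2.397), lys-7 (1.99), clec-266 (1.78), spp-16 (1.70), Y62H9A.5 (1.62) and lys-8 (1.48). It was also higher in DR than in AL for F46E10.2 (1.32), mlc-7 (1.27), far-3 (1.26), skr-10 (1.26), nos-2 (1.22), ftn-2 (1.21), ule-5 (1.21) and gst-24 (1.18). It was also higher in DR than in AL for ilys-5 (1.17), ule-3 (1.15), col-19 (1.11), spp-17 (1.07), nlp-40 (1.07), act-5 (1.07), ule-1 (1.04) and lbp-2 (1.04). It was also higher in DR than in AL for ZK813.3 (1.02). The log2 ratio was lower in DR than in AL by the difference given in parentheses for iff-1 (-1.51), dhs-26 (-1.42), C30G12.2 (-1.04), cpg-3 (-1.04) and snr-6 (-1.002). The log2 ratio was higher in daf-2;rsks-1 than in AL N2 by the difference given in parentheses for him-5 (1.54), nos-1 (1.26), him-3 (1.22), rpn-6.2 (1.199), trcs-1 (1.17), F22F4.4 (1.17), gld-1 (1.17) and K04C1.5 (1.13). It was also higher in daf-2;rsks-1 than in AL N2 for spo-11 (1.13), apx-1 (1.13), coh-4 (1.12), fem-3 (1.11) and mom-2 (1.07). The log2 ratio was lower in daf-2;rsks-1 than in AL N2 by the difference given in parentheses for ilys-5 (-2.37), F42A10.7 (-1.60), iff-1 (-1.57), rps-12 (-1.19), puf-12 (-1.13), fat-3 (-1.12), vit-5 (-1.105) and rps-20 (-1.09). It was also lower in daf-2;rsks-1 than in AL N2 for eef-1B.1 (-1.08), rps-3 (-1.03), hil-3 (-1.02) and rpl-11.1 (-1.02). rRNA took 11.5 to 20.9% of reads in the DR translated libraries, and its part in the DR differences was not tested.

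A single library stood apart from the other 3 of its group in 28 of 516 groups of 4 values examined for the genes named (by the gap to its nearest neighbour over the range, against Dixon's critical value), which is 5.43%, and chance alone gives about 1 in 20. Total replicate 1 was the lowest for ule-3 (1252 CPM) and ule-5 (1094 CPM). Total replicate 2 was the highest for skr-7 (179 CPM). Total replicate 2 was the lowest for npp-14 (278 CPM), tra-2 (76.3 CPM) and vit-6 (11307 CPM). Total replicate 3 was the highest for fbf-1 (30.04 CPM), sod-1 (198 CPM) and spo-11 (54.4 CPM). Total replicate 3 was the lowest for asp-6 (1987 CPM) and ilys-5 (125 CPM). Total replicate 4 was the highest for cpg-2 (4209.6 CPM), mdt-8 (89.7 CPM), mex-1 (370.3 CPM) and orc-1 (154 CPM). Total replicate 4 was the lowest for cpb-1 (100.4 CPM) and lin-26 (125 CPM). Translated replicate 1 was the highest for cyp-44A1 (20.3 CPM). Translated replicate 2 was the lowest for rps-20 (1015 CPM). Translated replicate 3 was the highest for fbf-1 (19.1 CPM). Translated replicate 4 was the highest for inx-21 (35.9 CPM) and rla-2 (1145 CPM). Translated replicate 4 was the lowest for cct-5 (679.7 CPM), cdk-4 (25.5 CPM), pal-1 (34.9 CPM), pgl-3 (207 CPM), rla-0 (1933 CPM) and vit-1 (331 CPM).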

How the results depend on the processing

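Whole-worm libraries, unstranded counting and exon bases shared with another gene (31.3% of the genes kept share some) limit single-gene values, and counting error covers only part of the spread. With reads scaled to protein-coding genes 160 genes were higher, and among the 5650 genes sharing no exon bases 600 were lower, since fewer genes were tested. With no filter on low values the length correlation was -0.168 and the difference between chromosome X and the autosomes 0.228; that difference was 0.547 with edgeR and 0.514 among genes sharing no exon bases. The cause was not tested.

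Leaving out each AL library in turn gave 378 to 410 genes higher and 914 to 958 lower, 310.0 to 329 higher in DR than in AL, 39 to 47 higher and 97 to 108 lower in daf-2;rsks-1, a length correlation of -0.264 to -0.240 and a chromosome difference of 0.536 to 0.545. Of 258 genes named, 30 of 145 called genes lost their call under some alternative, and fog-2, mbk-2, elo-6 and sod-1, just under 2-fold, were called when 1 library was left out. Ratios near 0 changed sign. With reads scaled to protein-coding genes alg-1 was at -0.0395, csr-1 at -0.0121, eef-1A.1 at -0.0990, enol-1 at -0.0984, pcn-1 at -0.0669, skr-1 at -0.106 and vit-2 at -0.101. With median-ratio size factors rnr-1 was at 0.0345, rps-20 at 0.0102 and tra-1 at 0.0426, and with edgeR tra-1 was at 0.00232. Leaving out 1 library gave -0.0369 to 0.0164 for rnr-1 and -0.0761 to 0.0659 for tra-1. The cause was not tested.

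The replicate block left the counts at 397 and 930, 316 and 147, and 41 and 102. Deviations of same-numbered total and translated AL libraries correlated at 0.088, 0.028, 0.016 and -0.077. Those of differently numbered libraries correlated at -0.143 to 0.188. The numbers were not taken to pair the samples, but such values cannot show that the samples were unpaired. Total mRNA was an unfractionated aliquot of the lysate, so total and translated libraries may share lysates. The main fit and its SE treated the libraries as independent.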

Other observations

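Several classes not described above lay apart from the median of all genes. Amino acid breakdown genes had a median of 0.73 over 16 genes kept, with hpd-1 (1.11) and afmd-2 (1.13), enzymes of tyrosine and tryptophan breakdown, higher. The CCT chaperonin and prefoldin subunits had a median of 0.48, with cct-5 at 0.96 and pfd-1 at -0.26. Antimicrobial cnc and nlp peptides had a median of 0.68 over 8 genes, and cnc-10 was higher at 1.08. Nonsense-mediated decay and exosome genes had a median of -0.29, with smg-7 at -1.14 and smg-6 at -0.96. Of the 19 genes kept, 1 was lower, smg-7 (5.26%, against 11.3% of all genes). Nuclear pore genes had a median of -0.15, with npp-14 at -0.89. F-box genes ran from fbxa-215 (-2.86) to fbxc-51 (1.13). Of 50 kept, 4 were higher (8%, against 4.83% of all genes) and 7 lower (14%, against 11.3%).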
